A study of Mus musculus with 10 samples.

Results

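The genes described here are 9 factors that bind promoter DNA close to the start of transcription, chosen by name from a table of 55536 genes: Nfya, Nfyb, Nfyc, Sp1, Sp2, Sp3, Sp4, Nrf1 and Yy1. All were read in every library of an RNA sequencing study of mouse fetal oocytes, with 5 Taf4b-deficient and 5 Taf4b-heterozygous libraries. Both genotypes came from female embryos at E16.5, late in fetal life, labelled C57BL/6, from matings of mice homozygous for an Oct4-EGFP transgene and heterozygous for the Taf4b-deficiency mutation, per the labels. Every library therefore carries the reporter transgene, and the heterozygous libraries carry a mutant Taf4b allele, so that no wild type was measured. Live GFP-positive cells were sorted from dissociated gonads. Whether each library stands for another embryo is not stated in the labels, so that the p-values describe library-to-library spread, which may be technical.

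Taf4b encodes TAF4b, a subunit of the core-promoter complex TFIID that is found mainly in the gonads. The factors described here bind next to the core promoter and help to recruit that machinery. Nuclear factor Y (NFY) is a trimer: NFYB and NFYC pair through histone folds, and NFYA joins the pair and reads the CCAAT box. SP1, SP2, SP3 and SP4 are zinc-finger proteins of the SP family that bind GC-rich boxes, and the glutamine-rich domains of SP1 contact TAF4-family subunits of TFIID. Nrf1 here is nuclear respiratory factor 1, which binds a GC-rich palindrome in promoters of many nuclear genes for mitochondrial proteins; it is not Nfe2l1, which shares the alias. YY1 is a zinc-finger protein that activates or represses according to promoter context, and in the mouse oocyte it is required for follicle growth.

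Promoter sequence of these genes was taken from RefSeq windows (GRCm38.p6, from 250 bases before to 50 bases after each annotated start), which gave 17 windows over all 9 genes. The 5 stretches that follow come from the genes with the smallest unadjusted p-values in the genotype comparison (Nfyb, Sp1 and Sp4) and from the other NFY subunits. They show boxes in the part of these promoters that lies before annotated exons. Each is given 5′ to 3′ on the strand of its gene, with annotated exon bases left out. Capitals mark CCAAT (the NFY box), GGGCGG (the GC box), GCGCNTGCG (the NRF1 motif) or ANATGGCG (the YY1 motif), read on either strand.
Nfya (chr17:48409907-48410004, minus strand): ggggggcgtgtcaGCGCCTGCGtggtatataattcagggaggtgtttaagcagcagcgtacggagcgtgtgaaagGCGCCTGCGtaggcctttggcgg
Nfyb (chr10:82764145-82764391, minus strand): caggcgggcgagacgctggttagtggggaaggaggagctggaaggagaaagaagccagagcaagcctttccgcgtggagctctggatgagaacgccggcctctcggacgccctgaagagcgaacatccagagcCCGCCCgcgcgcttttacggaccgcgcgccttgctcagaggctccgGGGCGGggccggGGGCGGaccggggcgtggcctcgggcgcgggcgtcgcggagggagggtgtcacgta
Nfyc (chr4:120825210-120825459, minus strand): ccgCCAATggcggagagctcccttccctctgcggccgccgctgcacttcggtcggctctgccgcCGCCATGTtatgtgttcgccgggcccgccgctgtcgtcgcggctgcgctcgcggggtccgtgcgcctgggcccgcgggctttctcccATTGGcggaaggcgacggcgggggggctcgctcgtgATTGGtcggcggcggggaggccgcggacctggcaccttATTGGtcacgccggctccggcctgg
Sp1 (chr15:102406066-102406142, plus strand): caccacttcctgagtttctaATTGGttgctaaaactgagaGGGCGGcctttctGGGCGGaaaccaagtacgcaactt
Sp4 (chr12:118301441-118301690, minus strand): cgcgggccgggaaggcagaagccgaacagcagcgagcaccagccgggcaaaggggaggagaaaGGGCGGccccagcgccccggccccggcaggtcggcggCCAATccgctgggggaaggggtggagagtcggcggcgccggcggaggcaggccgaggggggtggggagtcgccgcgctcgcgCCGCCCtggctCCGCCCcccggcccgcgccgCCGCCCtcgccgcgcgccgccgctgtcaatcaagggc
The Nfyb stretch holds 3 GC boxes and no CCAAT box, whereas the Nfyc stretch holds 4 CCAAT boxes and 1 YY1 motif and no GC box. The Nfya stretch holds 2 NRF1 motifs. In the Sp1 stretch there are 1 CCAAT box and 2 GC boxes, and in the Sp4 stretch 1 CCAAT box and 4 GC boxes. Over the 17 windows of the 9 genes, CCAAT was found in 8, the GC box in 11, the NRF1 motif in 2 and the YY1 motif in 2. Over all 32851 windows of the RefSeq table the shares were 37.4%, 35.7%, 6.31% and 3.65%. Those windows were not limited to genes tested here, so they are no matched background. Counted by gene, 5311, 8015, 1705 and 894 of 12388 tested genes held the motifs, in the same order. Among the 17 windows, both with the NRF1 motif belong to Nfya and overlap each other, so that they share NRF1 motifs and their GC box. They are not 2 separate promoters, and the counts over the 17 windows include both. The stretches leave out boxes of the same genes: the whole Sp1 window holds 3 CCAAT and 4 GC boxes, the whole Nfya window also a GC box and a YY1 motif, and another Nfyc window a GC box. Nfya and Nfyc have 3 windows each, of which 1 is shown. Overlaps between different motifs were not removed. A match is a string of letters and not a measured binding site.

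Counts per gene, as the authors deposited them, summed to between 16707216 and 23680023 in deficient and between 18174863 and 26983565 in heterozygous libraries. Values below are CPM, counts scaled to a common library size, unless TPM, the authors' length-scaled unit, is named. In the deposited files TPM is a fixed multiple of the count within a library: for all 15311 genes with at least 10 counts in every library, 1 length per gene gave the TPM of all 10 libraries (SD of the log2 ratio under 1e-06). TPM and CPM of a gene thus differ between libraries only by scaling, and TPM is no independent measure. Taf4b was at 80.7, 81.7, 80.2, 73.7 and 58.2 CPM in deficient 1 to 5, against 271, 290, 142, 65.7 and 101 CPM in heterozygous 1 to 5. On the CPM scale the library labelled heterozygous 4 thus lay inside the deficient range for the mutated gene. Under the scaling of TPM it did not, at 19.6 TPM against 15.6 to 18.6 TPM in deficient libraries. The fold changes of the 9 factors, their ratios and their order were also computed without the library labelled heterozygous 4. Fold changes of Nfya, Nfyc, Sp2, Nrf1 and Yy1 were then -0.39, -0.42, -0.35, -0.27 and 0.42 on the log2 scale, and those of the other factors are given with their values. The gene lists and promoter groups below were not computed without it. Summed germ cell markers ran from 3811 to 6076 CPM in deficient and from 4554 to 7404 CPM in heterozygous libraries. Pou5f1, whose locus drives the reporter used for sorting, had 97 counts over all libraries and was not tested. Markers of pregranulosa cells, stroma and endothelium each summed to 83.4 CPM or less in every library, and those of macrophages to at most 147 CPM in deficient and 176 CPM in heterozygous libraries. Erythroid markers summed to 1605 CPM in deficient 5, and to 719 and 2083 CPM in the library labelled heterozygous 4 and heterozygous 5, against 107 to 220 CPM in the other deficient and 65.0 to 219 CPM in the other heterozygous libraries.

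All 9 factors passed the filter on low counts, and edgeR on genotype alone called none of them, while the authors' deposited table called Nfyb and Sp1. edgeR's quasi-likelihood test on genotype, with Benjamini-Hochberg adjustment over all 19244 genes tested and a threshold of 0.05, called 0 genes, which is 0% of those tested. Taf4b itself was not called, at a log2 fold change of -1.22 (adjusted p = 0.155 in edgeR). The authors' deposited table called Taf4b, at -1.29 (adjusted p = 0.000152 in DESeq2). A factor that edgeR did not call can thus not be read as unchanged. In edgeR an unadjusted p under 0.05 was found for 3190 genes, or 16.6%, and for 3 of the 9 factors, which were Nfyb (lower in deficient) and Sp1 and Sp4 (higher in deficient). A count of 3 among 9 genes is small, and it was not tested against that background. On genotype alone, DESeq2 called 643 of 44767 genes fitted and limma voom with quality weights 283 of 19244. Neither called any of the 9, which says little where so small a share of genes was called. CPM values of the genotypes did not overlap for 680 genes, or 3.53%, and among the 9 factors this held for Sp4. Fold changes below are log2 values of deficient over heterozygous. Their median was -0.25 over the 9 factors and -0.02 over all genes tested. Heterozygous libraries spanned the wider range for 7 of the 9 factors (77.8%) and for 75.0% of all genes tested. In bulk RNA of sorted cells, fewer cells of a type and less RNA per cell cannot be told apart.

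**Figure D1:**
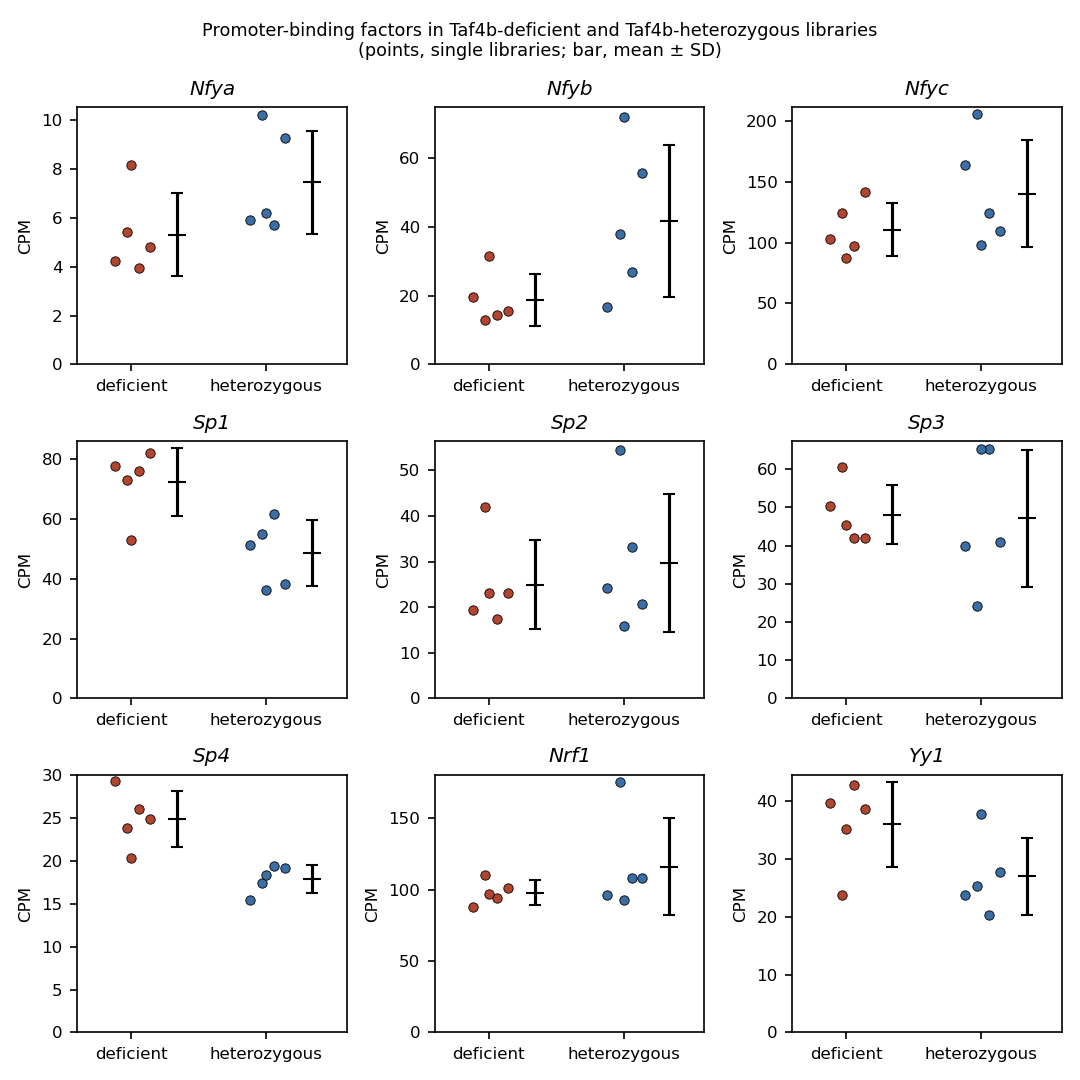
CPM of the 9 factors (vertical axis, linear, starting at 0) in 5 Taf4b-deficient (red) and 5 Taf4b-heterozygous libraries (blue); points are libraries and the bar beside them is the mean with its SD. The genotypes overlap in every panel except Sp4, where deficient libraries lie between 20.4 and 29.3 CPM and heterozygous libraries between 15.4 and 19.4 CPM.

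Of the NFY subunits, Nfyb had the fold change farthest from 0, and it was lower on average in deficient libraries. Nfyb encodes a histone-fold subunit and lies on chromosome 10 (82748701 to 82764144, minus strand, GRCm38). It was at 19.5, 14.4, 12.9, 15.4 and 31.5 CPM in deficient 1 to 5, against 16.6, 26.7, 37.9, 55.4 and 71.7 CPM in heterozygous 1 to 5. Heterozygous 1 lay among the deficient libraries, and deficient 5 lay above heterozygous 1 and 2, so the genotypes overlapped. The means were 18.7 ± 7.53 CPM in deficient and 41.7 ± 22.1 CPM in heterozygous libraries (SD, n = 5 each). Nfyb had a log2 fold change of -1.15 ± 0.37 (SE; adjusted p = 0.178 in edgeR). Without the library labelled heterozygous 4 it was -1.03 (adjusted p = 0.377 in edgeR).

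Of the edgeR fits on genotype alone that left out 1 library, only that without heterozygous 1 called Nfyb. That fit called 606 of 19766 genes, or 3.07%, against 0 with all libraries. Nfyb was the only one of the 9 factors among them, at a log2 fold change of -1.35 ± 0.32 (SE) and an adjusted p of 0.0459 in edgeR. Within the 3 litter dates of the labels, the mean log2 CPM of deficient minus heterozygous libraries was -0.12, -1.75 and -1.70, in order of date. In the authors' deposited table, Nfyb was called lower in deficient libraries, at a log2 fold change of -0.84 (adjusted p = 0.0174). That table called 1172 of 17881 genes with an adjusted p, or 6.55%.

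The deposited fold changes were matched by a model that holds, beside genotype, a grouping of the libraries into 3 levels that differ from the litter dates. Level 1 held deficient 1 and 2 with heterozygous 1, level 2 held deficient 3 and 4 with heterozygous 2 and 3, and level 3 held deficient 5 with the library labelled heterozygous 4 and heterozygous 5. With this grouping in the model, edgeR called 104 genes, or 0.54%, and none of the 9 factors, with Nfyb at -0.82 ± 0.24 (SE; adjusted p = 0.103). Nfyb differed by 0.01 on the log2 CPM scale within level 1, by -1.17 within level 2 and by -1.002 within level 3. The libraries of level 3 were those with the highest Nfyb of their genotype, and also those with the most erythroid marker signal, although none of the 6 erythroid markers tested reached an unadjusted p under 0.05 between genotypes and Hbb-y, the seventh, was at 0 in some libraries. The part of these markers in the Nfyb values was not tested. Without level 3 the log2 fold change of Nfyb was -0.80 (adjusted p = 0.321 in edgeR).

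**Figure D2:**
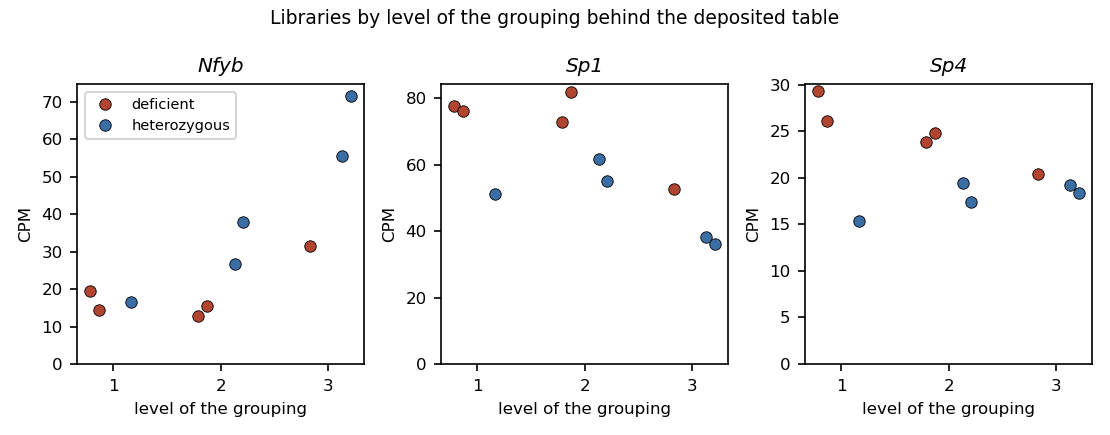
CPM of Nfyb, Sp1 and Sp4 (vertical axes, linear, starting at 0) by level of the 3-level grouping that matches the deposited fold changes; each point is a library, deficient in red on the left and heterozygous in blue on the right of each level. Nfyb is highest and Sp1 lowest in level 3 within each genotype, and the Nfyb values of level 1 overlap between genotypes.

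Nfya, which supplies the CCAAT-reading subunit, had the lowest level per length of the 9 genes, at a mean of 1.17 TPM over all libraries. Its values were 4.23, 3.93, 5.40, 4.78 and 8.18 CPM in deficient 1 to 5, and 5.89, 5.72, 10.2, 9.27 and 6.18 CPM in heterozygous 1 to 5. Deficient 5 lay inside the heterozygous range and the other deficient libraries below it. Its log2 fold change was -0.49 ± 0.28 (SE; adjusted p = 0.395 in edgeR). Nfyc, the histone-fold partner of NFYB, was at 103, 96.8, 124, 141 and 87.5 CPM in deficient 1 to 5, against 163, 124, 205, 110 and 98.0 CPM in heterozygous 1 to 5. These ranges overlapped widely, at a log2 fold change of -0.34 ± 0.23 (SE; adjusted p = 0.462 in edgeR), and -0.17 without heterozygous 3. All 3 subunits thus had a negative fold change, and none passed the test. In the authors' deposited table, Nfya and Nfyc were at -0.42 and -0.43, with adjusted p of 0.367 and 0.168.

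Because the trimer holds 1 copy of each subunit, the subunit transcripts were also set against each other within a library, in TPM. Since each gene has 1 fixed length, counts give the same differences. The log2 ratio of Nfyb to Nfya was 2.23 ± 0.35 in deficient and 2.78 ± 0.78 in heterozygous libraries (SD, n = 5 each). That is a difference of -0.55, with a two-sided exact permutation p of 0.198. The log2 ratio of Nfyb to Nfyc was -3.33 ± 0.73 in deficient and -2.59 ± 1.15 in heterozygous libraries (SD, n = 5 each), a difference of -0.74 (two-sided exact permutation p = 0.254). Within the SP family, the log2 ratio of Sp3 to Sp1 was 0.00 ± 0.34 in deficient and 0.48 ± 0.74 in heterozygous libraries (SD, n = 5 each; two-sided exact permutation p = 0.230). That of Sp2 to Sp1 was -0.52 ± 0.57 in deficient and 0.26 ± 0.46 in heterozygous libraries (SD, n = 5 each; two-sided exact permutation p = 0.0635). Without heterozygous 5 the differences were -0.25 for Nfyb to Nfya, -0.38 for Nfyb to Nfyc, -0.24 for Sp3 to Sp1 and -0.87 for Sp2 to Sp1. Without the library labelled heterozygous 4 they were -0.49, -0.52, -0.43 and -0.80, in the same order. With 1 library left out, the difference for Sp2 to Sp1 ran from -0.98 to -0.58. After adjustment over the 4 ratios every p was 0.254 with all libraries, and the smallest p that 5 against 5 libraries allow is 0.00794.

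Sp1 was higher in deficient libraries by a margin that passed the test in the authors' deposited table but not in edgeR. Sp1 encodes a broadly expressed activator and lies on chromosome 15 (102406143 to 102436404, plus strand). It was at 77.7, 76.0, 72.8, 81.8 and 52.8 CPM in deficient 1 to 5, and 51.2, 61.6, 55.0, 38.1 and 36.3 CPM in heterozygous 1 to 5. Only deficient 5 lay among the heterozygous libraries. Its log2 fold change was 0.58 ± 0.20 (SE; adjusted p = 0.194 in edgeR), and 0.50 without the library labelled heterozygous 4 (adjusted p = 0.391 in edgeR). In the authors' deposited table it was 0.46 (adjusted p = 0.0339). With the grouping in the model it was 0.49 ± 0.14 (SE; adjusted p = 0.103 in edgeR).

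Sp1 differed in the same direction within each litter date and each level, where each genotype has 1 or 2 libraries. Deficient minus heterozygous mean log2 CPM was 0.47, 0.70 and 0.86 within the 3 litter dates, and 0.59, 0.41 and 0.51 within levels 1 to 3. The libraries of level 3, with the most erythroid marker signal, had the lowest Sp1 of each genotype. Without them the log2 fold change was 0.46 (adjusted p = 0.343 in edgeR). Whether the differences of Nfyb and Sp1 vary between litter dates or levels was not tested.

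Sp4 encodes a family member best known from neurons and lies on chromosome 12 (118234933 to 118301440, minus strand). It was at 29.3, 26.1, 23.8, 24.8 and 20.4 CPM in deficient 1 to 5, and 15.4, 19.4, 17.4, 19.2 and 18.3 CPM in heterozygous 1 to 5. All deficient libraries lay above all heterozygous libraries, as they did for 373 of the genes tested, or 1.94%. The reverse order held for 307 genes, or 1.6%, and for none of the 9 factors. The log2 fold change of Sp4 was 0.47 ± 0.17 (SE; adjusted p = 0.214 in edgeR), and 0.50 without the library labelled heterozygous 4 (adjusted p = 0.384 in edgeR). Within levels 1 to 3 the difference was 0.85, 0.40 and 0.12, and within the litter dates 0.76, 0.45 and 0.30. Under the scaling of TPM the genotypes overlapped, since the library labelled heterozygous 4 was at 5.19 TPM and deficient 3 at 4.67 TPM. The authors' deposited table gave Sp4 a log2 fold change of 0.42 (adjusted p = 0.145).

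Sp3 showed no steady direction over the 28 alternative fits. Sp2 kept its negative fold change in 27 of them, but was higher in deficient libraries at the latest litter date. Sp2, known in mouse cells to occupy CCAAT promoters together with NFY, was at 19.3, 17.5, 42.0, 23.0 and 23.0 CPM in deficient 1 to 5, and 24.2, 33.2, 54.4, 20.7 and 15.8 CPM in heterozygous 1 to 5. Replicate 3 was the highest of each genotype. The log2 fold change was -0.25 ± 0.34 (SE; adjusted p = 0.739 in edgeR), and 0.08 without heterozygous 3. Sp3, which competes with SP1 for GC boxes and can activate or repress, was at 50.4, 42.1, 60.6, 42.0 and 45.4 CPM in deficient 1 to 5. It was at 39.8, 65.2, 24.2, 40.9 and 65.3 CPM in heterozygous 1 to 5, a range that contained every deficient library. Its log2 fold change was 0.03 ± 0.26 (SE; adjusted p = 0.966 in edgeR), and -0.01 without the library labelled heterozygous 4. Both genes share exon sequence with a transcript on the opposite strand, 126 bases for Sp2 with D030028A08Rik and 109 bases for Sp3 with its antisense gene Sp3os. Whether reads were counted by strand is not given in the sources used here. Reads from these overlaps therefore cannot be told apart, and both values are uncertain.

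Nrf1 was at 87.6, 93.9, 110, 101 and 96.8 CPM in deficient 1 to 5, and 96.0, 108, 176, 108 and 92.6 CPM in heterozygous 1 to 5. Heterozygous 3 stood above the rest, and the other 9 libraries lay between 87.6 and 110 CPM. The log2 fold change was -0.25 ± 0.20 (SE; adjusted p = 0.552 in edgeR), and -0.0560 without heterozygous 3 (adjusted p = 0.864 in edgeR). Yy1 was at 39.7, 42.8, 23.8, 38.6 and 35.2 CPM in deficient 1 to 5, and 23.7, 20.3, 25.4, 27.7 and 37.9 CPM in heterozygous 1 to 5. Deficient 3 was close to heterozygous 1, heterozygous 5 was above deficient 3 and 5, and the genotypes overlapped. The log2 fold change of Yy1 was 0.42 ± 0.22 (SE; adjusted p = 0.350 in edgeR). Within the litter dates Yy1 differed by 0.86, 0.27 and -0.04, so that the difference was near 0 at the latest date. The authors' deposited table called neither gene, with Nrf1 at -0.24 (adjusted p = 0.491) and Yy1 at 0.43 (adjusted p = 0.224).

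**Figure D3:**
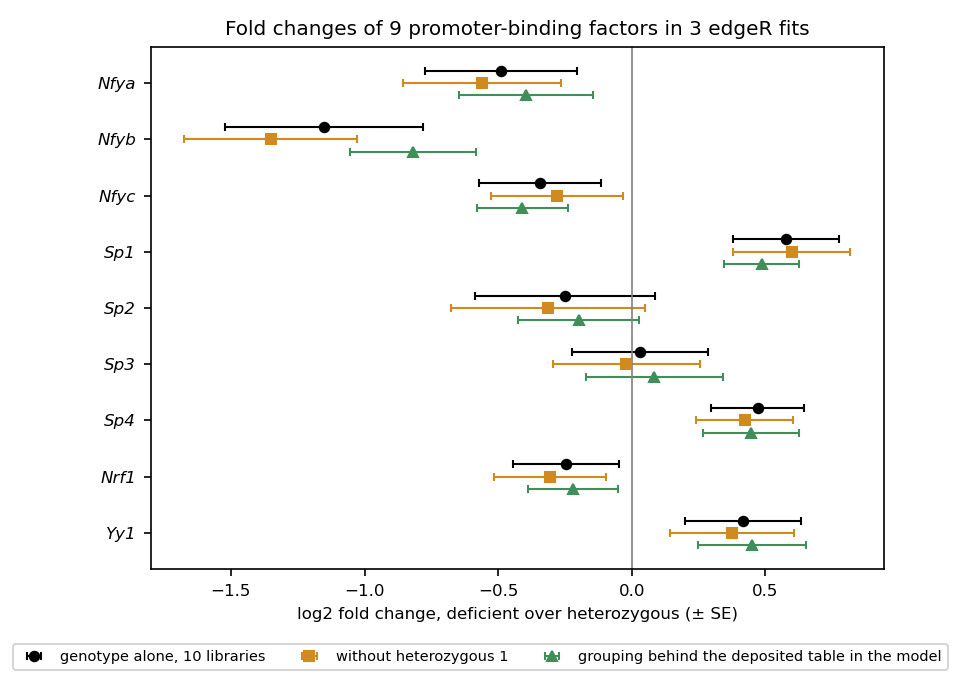
Log2 fold change of deficient over heterozygous libraries, with its SE (horizontal axis), for the 9 factors in 3 edgeR fits: genotype alone (black circles), without heterozygous 1 (orange squares) and with the grouping that matches the deposited table in the model (green triangles). Nfyb moves most between fits, at -1.15, -1.35 and -0.82, while Sp1 and Sp4 stay between 0.42 and 0.60.

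Levels of the 9 factors were ordered in TPM, a unit per transcript length, over all 10 libraries. Mean TPM was 1116 for Nrf1, 49.4 for Nfyc, 12.02 for Sp3, 9.82 for Sp1, 9.34 for Sp2, 7.82 for Nfyb, 6.29 for Yy1, 4.63 for Sp4 and 1.17 for Nfya. Neighbours in this order were compared by a two-sided exact sign-flip permutation test of log2 TPM over the 10 libraries, adjusted over 8 pairs. Of these, 4 differed: Nrf1 and Nfyc, Nfyc and Sp3, and Sp4 and Nfya, each with an adjusted exact p of 0.00521, and Yy1 and Sp4 with an adjusted exact p of 0.0156. Sp3, Sp1, Sp2, Nfyb and Yy1 formed a middle run whose neighbours did not differ beyond their spread. Among the NFY subunits the transcript of Nfyc was the most abundant and that of Nfya the least, in every library. By mean log2 TPM, Nfyb held rank 8 of the 9 in deficient and rank 5 in heterozygous libraries.

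The place of Nrf1 depended on the length used for it. Nrf1 had between 880 and 1629 TPM but between 8.52 and 17.1 CPM per kilobase of annotated exon. Its ratio of TPM to CPM per kilobase was 87.7 times that of the median gene, rank 104 of 13707 genes, whereas the other 8 factors lay between 0.960 and 1.12 times. On the scale of the median gene, its TPM corresponds to a length of 117 bases, against 10282 annotated exon bases. In counts per kilobase the order was Nfyc, Nrf1, Sp3, Sp2, Sp1, Nfyb, Yy1, Sp4 and Nfya, and 3 of the 8 neighbouring pairs differed: Nfyc and Nrf1, Yy1 and Sp4, and Sp4 and Nfya. The first place of Nrf1 in TPM thus rests on that short length.

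**Figure D4:**
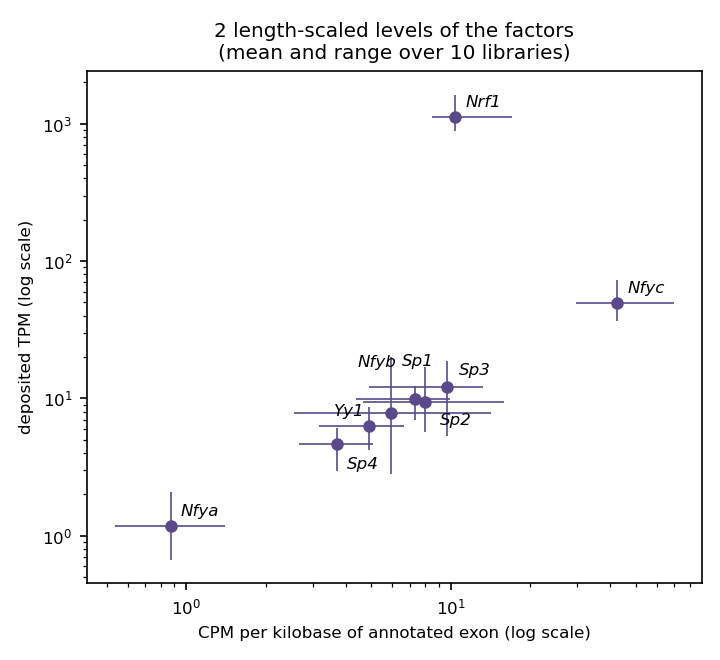
Deposited TPM (vertical, log scale) against CPM per kilobase of annotated exon (horizontal, log scale) for the 9 factors; points are means and lines the range over all 10 libraries. The other 8 factors line up, from Nfya at 1.17 TPM to Nfyc at 49.4 TPM, and Nrf1 lies far above that line at 1116 TPM.

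For each factor the tested genes with the most similar profile were sought by Pearson correlation of log2 CPM over the 10 libraries, among 13667 genes. These are descriptions, since all genes share the libraries and their scaling. The genes nearest to Nfyb were Ccnb2, a mitotic cyclin (r = 0.991), and Pno1, a ribosome assembly factor (r = 0.990). For Nfya they were Sf3b4 (0.931) and Pias4 (0.922), and for Nfyc Ints4 and Rogdi, both at 0.969. Sp1 lay nearest to Mbtd1 (0.985) and Usp31 (0.978), Sp2 to Arhgap1 (0.963) and Nup107 (0.962), and Sp3 to Ndst2 (0.930) and Crk (0.923). For Sp4 the nearest genes were Ceacam1 (0.948) and Gm29666 (0.945). Nrf1 lay nearest to Mapre2 (0.976) and Top3b (0.969), and Yy1 to Gm43668 (0.955) and Son (0.954). The highest coefficients thus belonged to Nfyb, the factor that varied most between libraries on the log2 TPM scale.

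Genes around these factors were counted in 7 lists of relatives, partners and textbook targets. edgeR called none of them after adjustment. Counts at an unadjusted p under 0.05 are to be read beside all genes tested, where 1433 (7.45%) passed it with higher and 1757 (9.13%) with lower values in deficient libraries. Of 19 other SP and KLF family members tested out of 22, 1 was higher and 3 were lower at an unadjusted p under 0.05, with a median log2 fold change of -0.29. The member with the smallest p was Klf11, a family member that can repress, at 32.2 ± 10.1 CPM in deficient and 59.9 ± 19.4 CPM in heterozygous libraries (SD, n = 5 each; adjusted p = 0.181 in edgeR). Of 24 other promoter-proximal factors tested out of 25, 2 were higher and 2 lower at that threshold, with a median of 0.02. Zfp143, a zinc-finger activator at promoters, was at 54.9 ± 2.70 CPM in deficient and 34.8 ± 7.10 CPM in heterozygous libraries (SD, n = 5 each). Its genotypes did not overlap, at a log2 fold change of 0.66 ± 0.17 (SE; adjusted p = 0.145 in edgeR). Of the same list, Elk4 also did not overlap and was higher in deficient libraries (log2 fold change 0.72, adjusted p = 0.183 in edgeR). Thap11 did not overlap and was lower (-0.57, adjusted p = 0.254 in edgeR). Among the 24 genes, 3 thus did not overlap, where 3.53% of all genes tested did not. None of the 5 histone-fold relatives of NFYB and NFYC reached an unadjusted p under 0.05, and Drap1, part of the NC2 repressor, had the smallest p (log2 fold change -0.10, adjusted p = 0.835 in edgeR).

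Of 13 cofactors and partners tested out of 14, 2 were higher and 2 lower at an unadjusted p under 0.05, with a median of 0.17. Ep300, a histone acetyltransferase that coactivates many promoter-bound factors, was at 120 ± 19.5 CPM in deficient and 63.2 ± 11.5 CPM in heterozygous libraries (SD, n = 5 each). Every deficient library was above every heterozygous one, at a log2 fold change of 0.92 ± 0.19 (SE; adjusted p = 0.113 in edgeR). Tbp, the TATA-binding protein, had no overlap in the opposite direction, at a log2 fold change of -0.42 (adjusted p = 0.285 in edgeR). Of this list, 2 genes thus did not overlap, beside 3.53% of all genes tested. Outside this list and that of promoter-proximal factors, no listed gene lacked overlap. Among 13 genes known as CCAAT-box targets, 0 were higher and 5 lower at an unadjusted p under 0.05, with a median of -0.39. Plk1, a mitotic kinase, had the smallest p, at 22.4 ± 9.96 CPM in deficient and 40.4 ± 10.2 CPM in heterozygous libraries (SD, n = 5 each; adjusted p = 0.178 in edgeR). Ccnb2, the gene nearest to Nfyb above, is on the same list, at 108 CPM in deficient and 227 CPM in heterozygous libraries on average (adjusted p = 0.194 in edgeR). It was named for its likeness to Nfyb over the same libraries, so its difference is not separate from that of Nfyb. Most of that list are cell cycle genes. Its other members include Hspa5, a chaperone of the endoplasmic reticulum, at a log2 fold change of -0.39 (adjusted p = 0.492 in edgeR). Of the 13 genes, 9 had a negative and 4 a positive fold change. The positive ones were Top2a (0.61), E2f1 (0.36), Hsp90b1 (0.23) and Cdc25b (0.10), on the log2 scale.

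Of 8 GC-box targets, none reached an unadjusted p under 0.05, with a median of 0.14. Odc1, which makes polyamines, had the smallest p of these, at a log2 fold change of 0.63 ± 0.38 (SE; adjusted p = 0.415 in edgeR). Of 13 NRF1 targets, 0 were higher and 2 lower at that threshold, with a median of 0.05. Alas1, the first enzyme of heme synthesis, was at 56.9 ± 10.2 CPM in deficient and 93.6 ± 26.8 CPM in heterozygous libraries (SD, n = 5 each; adjusted p = 0.173 in edgeR).

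Tested genes were also grouped by the boxes in their RefSeq promoter windows, over 12388 genes with a symbol match. The median log2 fold change was -0.09 for 5311 genes with CCAAT, -0.05 for 8015 genes with a GC box, -0.03 for 1705 genes with the NRF1 motif and -0.04 for 894 genes with the YY1 motif. Over all 12388 genes it was -0.06. An unadjusted p under 0.05 was found for 17.9%, 17.6%, 17.8% and 20.7% of these groups, in the same order, and for 17.4% of all 12388 genes. Genotypes did not overlap for 3.31%, 3.71%, 3.23% and 5.70% of the groups, against 3.54% overall. Groups share genes, since many promoters hold more than 1 of the boxes.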

How the data were processed

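RNA sequencing libraries of 5 Taf4b-deficient and 5 Taf4b-heterozygous oocyte samples were analysed. The authors deposited gene counts and TPM values. The submitters' processing notes name Trim Galore 0.5.0, HISAT2 2.1.0, featureCounts (Subread 1.6.2), StringTie 1.3.3b and the build GRCm38. The deposited TPM equal the counts divided by 1 length per gene and rescaled per library. How strand and multi-mapped reads were treated is not given in the sources used here. The authors' deposited DESeq2 table holds a mean normalized count (a signal-like base mean), log2 fold changes with standard errors, a score (the Wald statistic), p-values and adjusted p-values, per the file headers.

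The main test was edgeR 4.0.16 under R 4.3.3 on the counts (quasi-likelihood, genotype alone, TMM scaling, edgeR's expression filter), with Benjamini-Hochberg adjustment over 19244 genes and a threshold of 0.05. SE is the size of the fold change over the square root of F. CPM use TMM-scaled library sizes, summed over the genes that passed the filter. Before the filter, counts over all genes summed to between 16707216 and 26983565 per library. Rows without a symbol, 382 in all, took 0.0632% to 0.0945% of counts. Exon lengths and overlaps came from GENCODE M21 on GRCm38. The 3-level grouping was found by solving for the weight of each library in the deposited fold changes. DESeq2 1.42.0 refitted with it matched all 31181 deposited log2 fold changes within 0.00555 and gave 1172 calls, as deposited. Alternatives were 2 scalings, 2 filters, DESeq2, limma 3.58.1 (voom with quality weights, and log2(TPM + 1) or log2(TPM + 0.1)), litter date, replicate number or the grouping in the model, and libraries, litter dates or levels left out; the levels, DESeq2 with the grouping and the order by counts per kilobase were added after the data were seen.

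The 9 genes, the lists, the alternatives and the naming rule were chosen with earlier results of these data known. The rule names all 9 genes, Taf4b, from each list the called member or the one with the smallest p, and for each factor the 2 genes of highest r with a mean log2 CPM of at least 1. Elk4, Thap11 and Tbp were added after their values were seen. So were Ccnb2, Hspa5, Top2a, E2f1, Hsp90b1 and Cdc25b in the list of CCAAT-box targets.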

Additional observations from a re-analysis of the deposited data

Results flagged for a closer look

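On the log2 CPM scale, 2 values stood apart within groups of 5 libraries by Dixon's test. Chance flags about 1 of 20 such groups, and 18 groups were looked at. On the CPM scale, in which the values are given here, the flagged values can differ. Sp1 was lowest in deficient 5, at 52.8 CPM, where the next deficient library was at 72.8 CPM. Nrf1 was highest in heterozygous 3, at 176 CPM, where the next heterozygous library was at 108 CPM.

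For 3 factors every deficient library lay on one side of the heterozygous libraries at one litter date and on the other side at another. These differences between dates were not tested, and each date holds 1 or 2 libraries per genotype. Sp2 differed by -0.56 on the log2 CPM scale (deficient minus heterozygous) at the earliest date and by 0.54 at the latest. Sp3 differed by 0.68 at the middle date and by -0.58 at the latest. Nrf1 differed by -0.22 at the earliest date and by 0.0946 at the latest.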

How the results depend on the processing

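The count of genes called was 0 with genotype alone. It was 251 of 44767 without a filter on low counts, 643 of 44767 genes fitted in DESeq2, and 283 of 19244 in limma voom with quality weights. With the grouping behind the deposited table in the model it was 104 of 19244 in edgeR and 1172 of 31181 genes fitted in DESeq2. With 1 library left out it lay between 0 and 606, the highest being 606 of 19766 without heterozygous 1. The count of the 9 factors called stayed at 0 in 26 of 28 alternatives. It was 2 (Nfyb and Sp1) in DESeq2 with that grouping, and between 0 and 1 with 1 library left out, Nfyb being called without heterozygous 1. Nfya, Nfyb, Nfyc, Sp1, Sp4, Nrf1 and Yy1 kept the sign of their fold change in all 28 alternatives, though not the size: without the middle litter date Nfya was at -0.0382 and Nrf1 at -0.0507, and without heterozygous 3 Nfyc was at -0.171 and Nrf1 at -0.0560. Sp2 ranged from -0.518 to 0.0810 without single libraries, its sign turning without heterozygous 3. Sp3 changed sign in 10 of 28: it was at -0.0034 with upper-quartile scaling, -0.0465 in limma voom, -0.0124 on log2(TPM + 1), -0.0028 on log2(TPM + 0.1), -0.30 without the middle litter date and -0.0831 without level 2. Without single libraries it ranged from -0.14 to 0.18, being -0.06 without deficient 3, -0.02 without heterozygous 1, -0.14 without heterozygous 3 and -0.01 without the library labelled heterozygous 4. The cause was not tested. The 4 ratios kept their sign in all 12 alternatives each, of which counts in place of TPM is the same measure. Their p with 1 library left out cannot go below 0.0159 before adjustment, so missing the threshold there says little. In the order, 3 or 4 of the 8 neighbouring pairs differed. The order could not be tested within 1 genotype, since 5 libraries allow no p below 0.0625.

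Libraries with the same replicate number did not deviate together throughout. The correlations of their deviations were 0.169, 0.0346, 0.118, -0.262 and 0.593, so the numbers were not read as pairs. With a replicate block in the model, edgeR called 1 gene and 0 of the 9 factors. Nfya, at 3.93 to 10.2 CPM, rests on the fewest counts of the 9.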
